A study of Homo sapiens with 8 samples.

Results

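The regions described here are promoter-array probes at which SMAD3 was enriched at the basal level and depleted after TGFβ1 stimulation of A549 cells, a human lung alveolar epithelial carcinoma line. They were selected on their own measured values. A probe was eligible if both the SMAD3 IP and the mock IP signal were well above background on all 4 arrays of its slide, and a member had a log2 ratio (SMAD3 IP over mock IP, minus the median of the array) above 2 in both basal replicates and below -1 in both stimulated replicates. The rule was met by 1919 of 161376 eligible probes (1.19%), among 474411 non-control probes on the arrays. The first slide carried 694 members (0.993% of its eligible probes) and the second slide 1225 (1.34%).

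The study measured binding of SMAD3 by chromatin immunoprecipitation followed by hybridisation to promoter microarrays (ChIP-on-chip). Cells were serum-starved and either left untreated (basal) or treated with 2 ng/ml TGFβ1 for up to 2 h, with 2 replicates per condition. Elsewhere the study's text gives a shorter stimulation for these arrays and a further replicate, which is not analysed here. On every array, DNA from the anti-SMAD3 IP carried Cy5 and DNA from a mock IP with an anti-FLAG antibody carried Cy3, so that each ratio is relative to a mock IP of the same condition. Each replicate was spread over 2 slides with different probes, which gave 8 arrays of 1 cell line.

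SMAD3 is a receptor-regulated transcription factor of the TGFβ pathway. Binding of TGFβ1 to its receptors leads to phosphorylation of SMAD3, which joins SMAD4, accumulates in the nucleus and binds DNA with partner factors at short motifs, of which the SMAD box, GTCT or its reverse complement AGAC, is the best known. Some SMAD3 also enters the nucleus of unstimulated cells. In lung epithelium the pathway is known for its part in growth arrest, matrix deposition and epithelial-mesenchymal transition.

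The array files hold no probe sequences, so promoters are shown for 5 genes whose members lay inside a window reaching 250 bp before and 50 bp past the annotated start and were among those with the widest separation between conditions. They are the RefSeq promoters of build GRCh38.p14, 250 bases before to 50 bases after the start, written 5′ to 3′ in the direction of the gene, with each SMAD box in capitals. The RefSeq start can differ from the start the array was designed on. LIN37 encodes a subunit of the MuvB core of the DREAM complex, which represses cell cycle genes, and its promoter lies at chr19:35748326-35748625 on the plus strand. UBXN1 (LOC51035 in the array files), a ubiquitin-binding cofactor of the p97 ATPase, lies at chr11:62679024-62679323 on the minus strand. SCRN2 lies at chr17:47841224-47841523, minus strand. ZNF334, a zinc finger gene, lies at chr20:46513510-46513809, minus strand. CIMAP1C (ODF3L1 in the array files) lies at chr15:75723791-75724090, plus strand.
LIN37: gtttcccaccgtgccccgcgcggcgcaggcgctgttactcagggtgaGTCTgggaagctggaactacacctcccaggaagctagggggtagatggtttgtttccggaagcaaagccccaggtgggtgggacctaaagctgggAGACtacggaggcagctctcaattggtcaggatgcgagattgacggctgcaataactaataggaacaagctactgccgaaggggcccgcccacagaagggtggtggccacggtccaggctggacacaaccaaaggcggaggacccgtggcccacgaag
UBXN1: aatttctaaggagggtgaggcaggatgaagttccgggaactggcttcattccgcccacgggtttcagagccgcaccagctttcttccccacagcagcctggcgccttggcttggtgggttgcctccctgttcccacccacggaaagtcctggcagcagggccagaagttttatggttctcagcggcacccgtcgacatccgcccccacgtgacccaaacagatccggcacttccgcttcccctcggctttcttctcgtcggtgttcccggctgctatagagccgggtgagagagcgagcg
SCRN2: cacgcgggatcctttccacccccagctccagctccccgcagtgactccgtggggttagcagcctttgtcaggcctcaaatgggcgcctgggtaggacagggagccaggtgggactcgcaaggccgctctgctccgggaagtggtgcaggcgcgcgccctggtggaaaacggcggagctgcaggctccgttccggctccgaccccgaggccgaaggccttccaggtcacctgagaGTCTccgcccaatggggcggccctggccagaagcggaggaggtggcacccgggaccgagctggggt
ZNF334: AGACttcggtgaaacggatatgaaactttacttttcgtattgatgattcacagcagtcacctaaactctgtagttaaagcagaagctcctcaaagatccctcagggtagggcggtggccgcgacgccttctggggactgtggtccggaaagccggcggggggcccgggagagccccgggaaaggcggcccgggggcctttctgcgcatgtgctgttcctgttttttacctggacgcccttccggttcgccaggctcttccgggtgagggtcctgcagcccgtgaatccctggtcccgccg
CIMAP1C: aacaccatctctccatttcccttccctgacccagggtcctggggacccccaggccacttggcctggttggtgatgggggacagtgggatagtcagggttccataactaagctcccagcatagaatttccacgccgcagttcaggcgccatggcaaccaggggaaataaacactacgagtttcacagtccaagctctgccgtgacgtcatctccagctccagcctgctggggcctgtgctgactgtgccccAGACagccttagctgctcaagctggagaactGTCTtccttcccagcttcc

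The LIN37 and CIMAP1C promoters each held 2 SMAD boxes, those of SCRN2 and ZNF334 held 1, and that of UBXN1 held 0 in this window. GC content was 60.7% for LIN37, 61% for UBXN1, 69.3% for SCRN2, 60% for ZNF334 and 57.7% for CIMAP1C. Of 142 genes with a member in the window, 118 (83.1%) had a RefSeq promoter, and 80.5% of these held a SMAD box on either strand. The share was 82.0% among the 8473 promoters of genes with an eligible probe in the window and 84.1% among all 27305 promoters. The GC-rich SMAD element GGCGC was present in 77.1%, 73.7% and 48.3% of the same sets, the CAGA box CAGACA, which contains a SMAD box, in 13.6%, 12.8% and 16.8%, and the AP-1 site TGANTCA in 3.39%, 4.47% and 7.76%, each counted on both strands. The median GC content was 65.7% in the promoters with members, 65.7% in those with eligible probes and 58.3% in all promoters. The E-box CANNTG was found in 68.6%, 61.8% and 68.9%, the forkhead site TGTTTAC in 0.847%, 2.09% and 3.41%, and the palindromic SMAD element, GTCT directly followed by AGAC and so itself a pair of SMAD boxes, in 0%, 0.106% and 0.201%. A CpG was present in 99.2%, 99.5% and 95.8%. The promoters with members differed from those with any eligible probe by a few percentage points in either direction.

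The members covered a wide range of ratios. Their median log2 ratio was 3.17 and 3.13 in the basal replicates, with a highest value of 10.2 and 10.3, and -2.32 and -2.33 in the stimulated replicates, with a lowest value of -10.3 and -9.05. Over all eligible probes the medians were -0.30, -0.42, -0.47 and -0.54. The change from basal to stimulated had a median of -5.98 over members (quartiles -7.83 and -4.77, range -18.2 to -3.27) against -0.18 over all eligible probes, and 450 members had a change below -8. The median SD between replicates of a member was 0.17 at the basal level and 0.25 after stimulation (n = 2 each). The values chose the members, and no test of them is given. For background, limma called 30.6% of all eligible probes lower and 23.2% higher after TGFβ1 stimulation at an adjusted p under 0.05. All 1919 members were among those called lower. The rule used the same values and fixes the direction, so this adds no support.

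**Figure D1:**
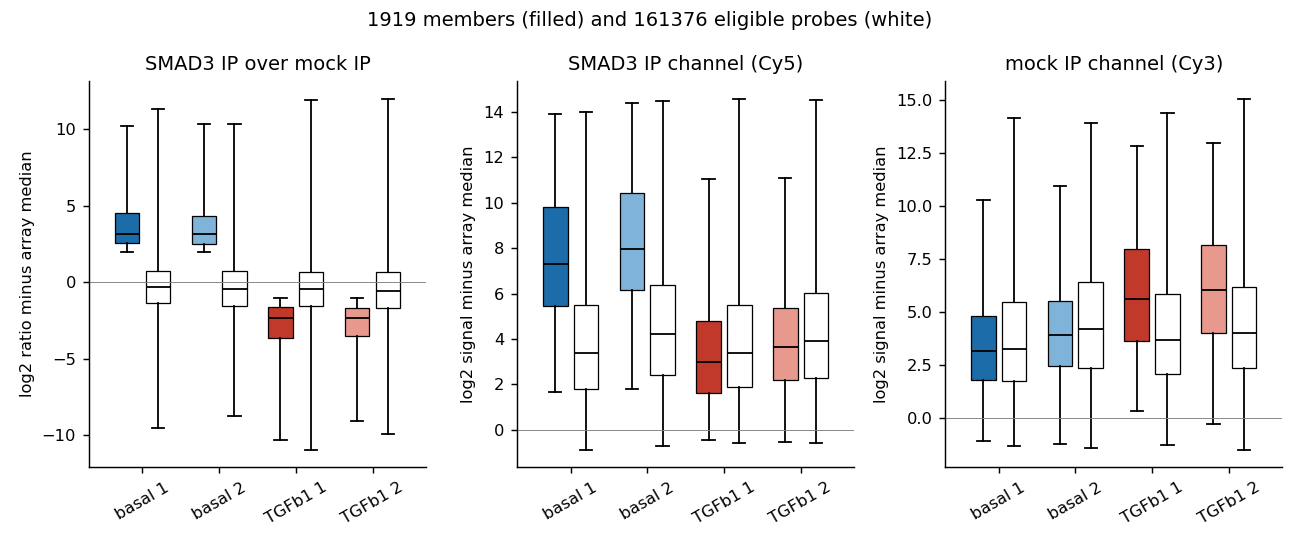
Boxes give the quartiles and median and whiskers the lowest and highest value, over 1919 members (filled) and 161376 eligible probes (white), in each replicate; the y axes are log2 ratio (left) and log2 signal of each channel minus the median of the array. The members' SMAD3 IP medians are 7.29 and 7.95 at the basal level and 2.98 and 3.65 after stimulation, while their mock IP medians are 3.19 and 3.93, then 5.61 and 6.04.

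Replicates of a condition were alike over the eligible probes, with a Pearson correlation of 0.893 and 0.971 on the first slide and 0.976 and 0.949 on the second (basal and stimulated), while basal and stimulated arrays correlated at 0.330 and 0.312 on average. These correlations are across probes of the same arrays and describe the libraries. The labels call the replicates biological, and nothing further is given on how separately they were made, so the calls measure the spread between these samples, which may be technical. Between 41.7% and 60.8% of probes in a channel of an array were well above background. With normexp (offset 50) on the mean and background signals in place of the processed signals, 274 probes met the rule, of which 243 were members, and the cause was not tested. With loess within arrays 1869 probes met it and 1214 of them were members, and with centring on the eligible probes 1859 and 1395. All 1919 members had a change below 0 under each of the 3 settings. These reprocess the same spots, which were chosen for a wide gap, so the kept direction adds little support. The settings moved the median change of all eligible probes to 0.02, -0.03 and -0.05. That of the 1919 members moved from -5.98 to -3.20 with normexp, -5.79 with loess and -5.85 with centring on the eligible probes.

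The fall of the ratio came from both channels. In the SMAD3 IP channel the members' median change was -4.13, against -0.01 over all eligible probes. In the mock IP channel it was 1.62, against 0.20. The SMAD3 IP signal fell while the mock IP signal rose at 1370 members (71.4%), against 21.9% of eligible probes. The SMAD3 IP signal fell by over 1 on the log2 scale while the mock IP signal rose by over 1 at 903 members (47.1%, against 3.15%). At 568 members the SMAD3 IP signal fell by over 1 and the mock IP signal moved by at most 1, and at 225 the mock IP signal rose by over 1 and the SMAD3 IP signal moved by at most 1. The mock IP signal moved more than the SMAD3 IP signal at 600 members (31.3%, against 56.0% of eligible probes). With loess within arrays it moved more at 856 of the 1869 probes that then met the rule, so this balance depends on the scaling. At 154 members both signals rose and at 395 both fell. Part of each difference from the eligible probes follows from the rule, since the ratio had to fall. A rise of the mock IP signal lowers the ratio in the same way as a loss of SMAD3 IP signal, and what moved it was not tested.

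**Figure D2:**
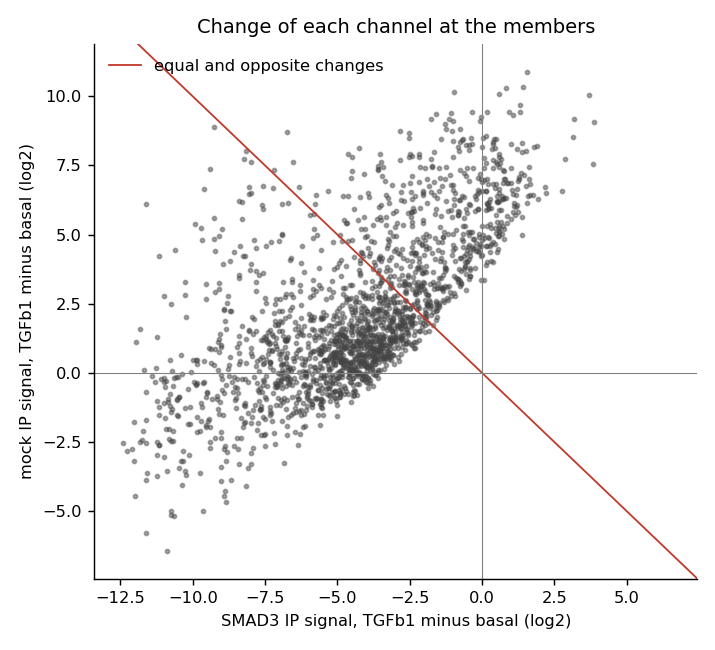
Each point is 1 of 1919 members, with the change of its SMAD3 IP signal on the x axis and of its mock IP signal on the y axis (log2, TGFβ1 minus basal, means of 2 replicates). The line marks equal and opposite changes; the 600 members whose mock IP signal moved more lie beyond it towards the upper right, and the quadrant of falling SMAD3 IP and rising mock IP signal holds 1370 members.

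The probe with the widest separation lay 132 bp downstream of the LIN37 start on chromosome 19. Its log2 ratio was 9.97 and 9.18 in the basal replicates (9.57 ± 0.56, SD, n = 2) and -9.13 and -8.22 after stimulation (-8.67 ± 0.64), a change of -18.2. Its SMAD3 IP signal changed by -9.27 and its mock IP signal by 8.90. The probes at 257 and -96 bp of LIN37 changed by -15.7 and -15.5. At the latter, shown in the promoter above, the mock IP signal rose by 8.72 and the SMAD3 IP signal fell by 6.74. Another member at -205 bp had basal values of 5.81 and 5.18 and stimulated values of -4.05 and -4.32. The run of 4 members covered 462 bp with no other eligible probe between them, and the next eligible probe downstream, at 1366 bp, had -0.52, -0.19, -1.998 and -2.81 in basal 1, basal 2, TGFβ1 1 and TGFβ1 2.

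RAB5C, which encodes a GTPase of early endosomes on chromosome 17, had 5 consecutive members from -1289 to -824 bp of the start. Their mean log2 ratio was 8.53 and 8.36 at the basal level and -6.81 and -5.45 after stimulation. The highest basal value was at -1051 bp (9.40 and 10.3) and the lowest stimulated value at -1166 bp (-8.04 and -7.66). On the downstream side the probe at -703 bp kept a basal ratio of 5.67 and 5.32 but had -0.63 and -0.81 after stimulation. On the other side the probe at -1402 bp was near the array median in all 4 replicates (0.08, -0.43, -0.58 and -0.74). The 5 members span 465.5 bp, and that high basal and low stimulated ratios coincide over them follows from the rule.

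LCN2, coding for the iron-siderophore binding protein lipocalin 2 on chromosome 9, also had 5 members, which lay from -5199 to -3954 bp of the start among 8 eligible probes. The 3 members nearest the gene had basal values of 8.47 and 8.25 at -4229 bp, 6.25 and 7.89 at -4092 bp, and 7.13 and 6.50 at -3954 bp. After stimulation they had -4.21 and -4.92, -4.87 and -5.15, and -5.45 and -6.20. At some eligible probes between the members the replicates differed: at -4844 bp the basal values were -1.24 and 8.98, and at -4415 bp 0.20 and 4.97. The probe at -5023 bp had 7.97 and 7.11 at the basal level and -0.48 and 0.47 after stimulation.

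NTSR1, the neurotensin receptor gene on chromosome 20, had 4 members from 916 to 1884 bp downstream of the start. The member at 1417 bp had 10.2 and 9.75 at the basal level and -2.33 and -4.66 after stimulation. The same gene carried the opposite pattern upstream: at -1056 bp the basal values were -2.57 and -2.71 and the stimulated values 6.17 and 5.47, and at -941 bp the basal values of -0.10 and -0.13 stood against 9.38 and 8.62. Of the eligible probes between these stretches, the one at -382 bp had 0.90, 0.91, 0.65 and 1.16, while the 6 from -201 to 663 bp had positive basal and negative stimulated values. Among these 6 the probe at 559 bp had 2.93, 2.92, -1.41 and -0.61, and the probe at 663 bp 1.78, 1.69, -4.29 and -2.83. The probe at -808 bp, with 1.40 and 7.80 in the second replicates, continued the upstream stretch.

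**Figure D3:**
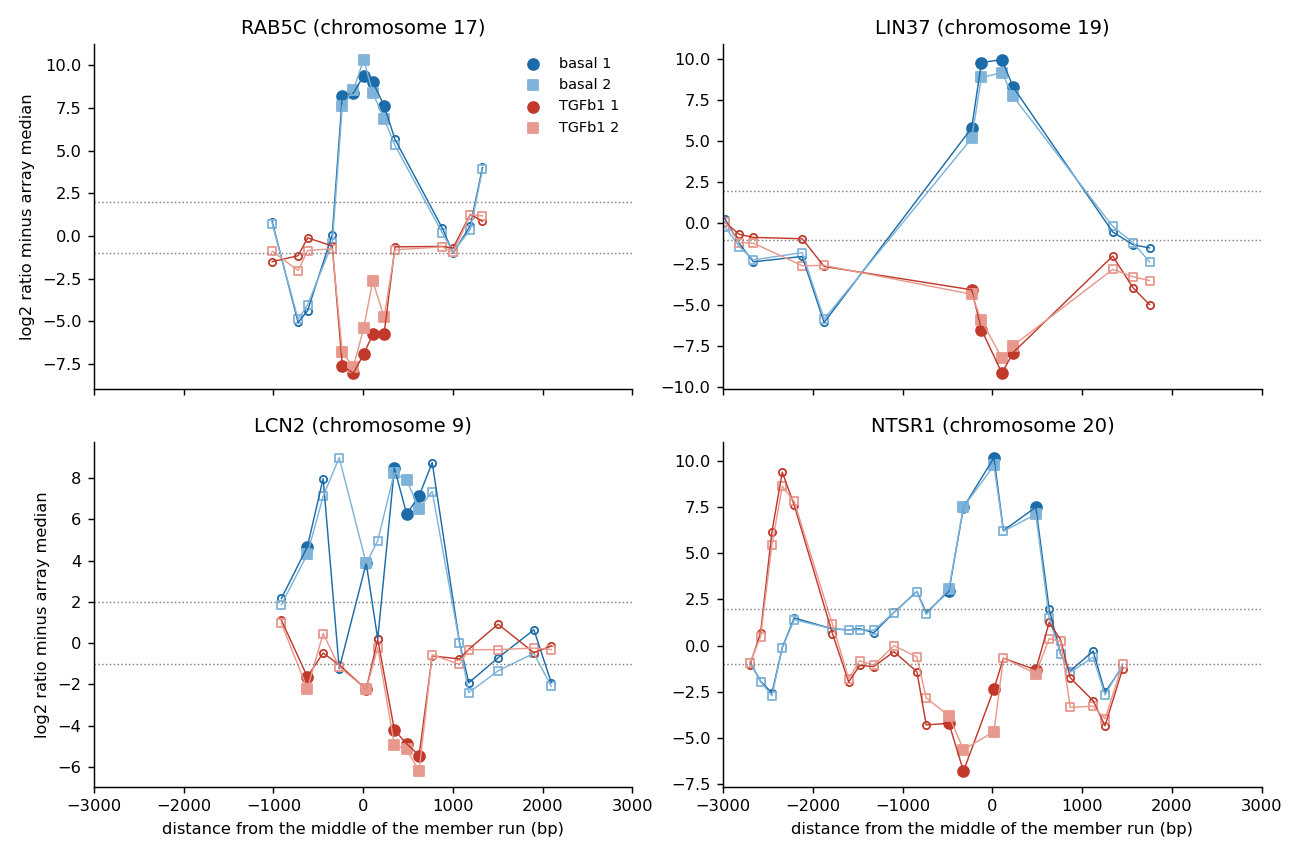
Log2 ratio minus the array median (y) of eligible probes against the distance from the middle of the run of members (x, bp, counted in the direction of the annotated distances), in 2 basal and 2 TGFβ1 replicates; filled symbols are members, open symbols other eligible probes, and dotted lines the limits of 2 and -1. Basal values are high and stimulated values low at the members, as the limits require, from 9.97 to -9.13 in the first replicates at LIN37. At LCN2 the highest basal values, 8.74 in basal 1 and 8.98 in basal 2, lie at eligible probes that are not members. At NTSR1 the stimulated values reach 9.38 upstream of the members.

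Of the 1919 members, 281 (14.6%) had another member within 700 bp, the longest fragment length after sonication in the study's methods. The same share over all eligible probes was not computed, so this count cannot be called high or low. Members chained at up to 700 bp formed 1758 regions, of which 1638 held a single member, 91 held 2, 19 held 3, 8 held 4 and 2 held 5. Regions of 2 or more spanned a median of 290 bp and at most 1245 bp. Between their outer members lay 105 further eligible probes, of which 41 were members. Other regions of 4 were at INO80E (CCDC95 in the array files), a subunit of the INO80 chromatin remodeller, with mean values of 6.70, 6.21, -4.73 and -4.61, and at the transporter gene SLCO4A1, with 5.91, 5.64, -3.68 and -3.68. MAPK8IP3, METRNL, ARL2 and the synaptic scaffold gene SHANK2 also had 4. Regions of 3 included SPRY4, an inhibitor of receptor tyrosine kinase signalling (7.27, 6.96, -5.48 and -5.93), NUMBL, a Numb-like protein (8.05, 7.89, -3.93 and -3.33), and THBD, the thrombin receptor thrombomodulin (5.46, 5.70, -5.00 and -4.14). In these regions each basal mean lay above each stimulated mean, which the choice of members fixes.

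Eligible probes near a member were measured on other spots, which the rule did not use, although they share arrays and DNA fragments with the members. Within 250 bp there were 1965 such neighbours that were not members, at 1283 of the members. Their median log2 ratio was -0.02 and -0.07 at the basal level and -0.77 and -0.80 after stimulation, and their median change was -0.93 (quartiles -3.03 and 0.27) against -0.18 over all eligible probes. limma called 970 of them lower (49.4%) and 289 higher (14.7%), against 30.6% and 23.2% of all eligible probes. With normexp, 24.9% of the neighbours of the 274 probes that then met the rule were called lower, against 6.63% of all eligible probes. Both basal values lay above both stimulated values at 61.7% of the 1965 neighbours. The share was 44.2% among all eligible probes and 43.1% among those more than 5000 bp from a member, with no test of these shares.

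The difference faded with distance. Of eligible probes 250 to 500 bp from a member 35.8% were called lower, and from 500 to 700 bp 31.4%. Beyond 700 bp the share was 31.2% to 1000 bp, 30.4% to 2000 bp and 30.6% to 5000 bp, and it was 29.3% among eligible probes farther away. Neighbours of members that stood alone were called lower in 48.0% of 1768 cases, and those of members in regions of 2 or more in 61.4% of 197. Even at 250 bp the median change of neighbours was a fraction of that of the members, which had been selected for it. Over all eligible probes, values of adjacent probes up to 250 bp apart correlated at 0.315 to 0.329 in the 4 replicates (83826 pairs), those 250 to 500 bp apart at 0.163 to 0.169 (30263 pairs) and those 700 to 1000 bp apart at 0.0369 to 0.0497 (7131 pairs), as a description across probes of the same arrays.

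**Figure D4:**
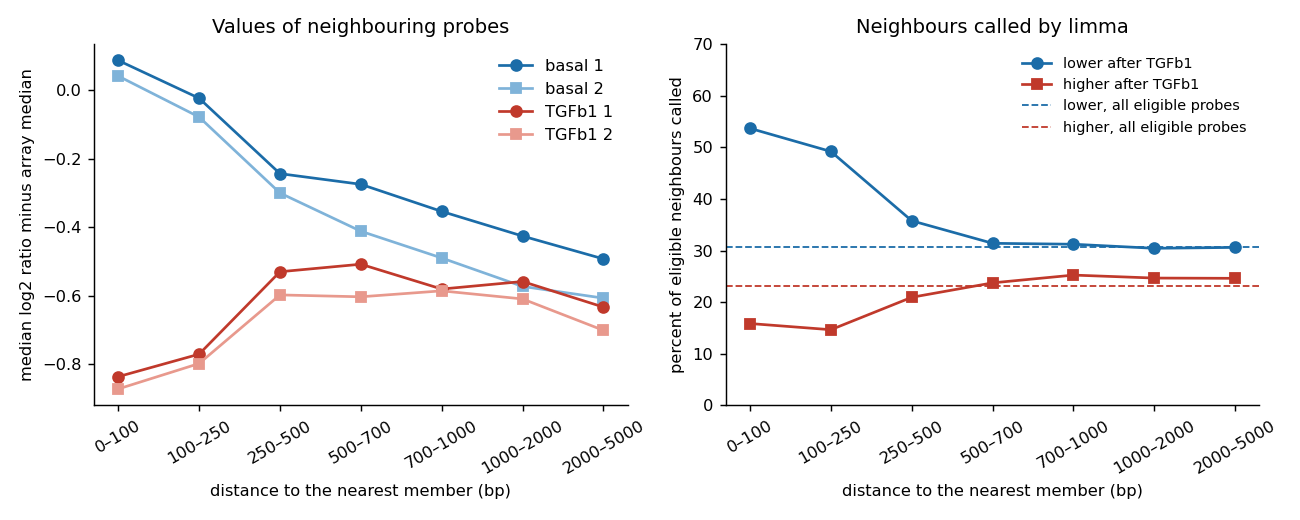
Left, the median log2 ratio minus the array median (y) of eligible probes that are not members, by distance to the nearest member (x, bp), in each replicate. Right, the percent of them called lower or higher after TGFβ1 by limma, with dashed lines at 30.6% and 23.2% for all eligible probes; 49.2% were called lower at 100 to 250 bp and 31.4% at 500 to 700 bp.

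Probes enriched above 2 after stimulation and below -1 at the basal level, the mirror image of the rule, numbered 1403 (0.869% of eligible probes), and 5113 were above 2 in all 4 replicates. A mirror-image probe lay within 700 bp of 26 members (1.35%), and a probe above 2 in all replicates within 700 bp of 192 (10.0%). The same shares over all eligible probes were not computed, so these counts cannot be called high or low. Members were annotated to 1625 of the 17724 genes with an eligible probe (9.17%). Of these genes 157 also had a mirror-image probe, which is 9.66% of the genes with members and 13.1% of the 1202 genes with mirror-image probes. Over all genes with an eligible probe, 6.78% had a mirror-image probe and 9.17% a member. Genes with more eligible probes have more occasions to hold both, and the overlap was not tested. A single member was found at 1421 genes and 4 or more at 11.

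Members lay at all distances from starts that the array covers. Within 250 bp of the annotated start 270 of 27949 eligible probes were members (0.966%). The share was 1.18% from 250 to 2000 bp upstream (326 members), 1.16% from 250 to 800 bp downstream (284), 1.32% over 2000 bp upstream (337) and 1.27% over 800 bp downstream (643). Divergent promoters had 37 members (0.759%). Most members were on short probes: 1673 were on probes of up to 50 bases, which made up 92.1% of eligible probes, and 246 on longer ones, where members were 1.94% of eligible probes against 1.13% of the shorter. Only 4.48% of longer probes were eligible, against 77.7% of shorter ones. By chromosome, among the autosomes, the share of members ran from 0.742% on chromosome 4 to 1.53% on chromosome 17.

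Other members near starts with a wide separation were in R3HCC1L (C10orf28), UBXN1, SCRN2, ZNF334, CIMAP1C and UXT, a prefoldin-like cochaperone. The member at 189 bp of R3HCC1L had 8.57 and 8.60 at the basal level and -10.3 and -8.08 after stimulation. At the UBXN1 start the values were 8.06, 8.05, -6.82 and -6.26. At -52 bp of SCRN2 they were 8.26, 7.70, -6.37 and -5.63, and at -36 bp of ZNF334 7.05, 6.64, -6.03 and -5.81. At each of these genes the replicates differed far less than the conditions. The rule fixes the separation of the conditions, and naming by the widest gap favours probes with alike replicates, so this adds no support. Farther from starts, the member at -1583 bp of LOXL4, a lysyl oxidase-like collagen crosslinking enzyme, had 9.30, 8.62, -8.11 and -7.61. The member at -2532 bp of CCIN, which encodes the sperm head protein calicin, had 9.43, 8.17, -6.80 and -6.20, and the one at -866 bp of the nucleoside transporter gene SLC28A1 had 10.1, 8.04, -8.11 and -6.27.

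At genes of TGFβ ligands, receptors and latent binding proteins, 4 of 202 eligible probes were members (1.98%, 3 of 20 genes). For this and the following lists, the overall shares were 1.19% of eligible probes and 9.17% of genes. Genes with more eligible probes have more occasions to hold a member. The median change over the 202 probes was -0.36 and 35.1% were called lower, against -0.18 and 30.6% over all. TGFB3, a ligand, had a member at 1843 bp with 2.58, 2.48, -6.25 and -4.57. LTBP3, which holds latent TGFβ in the matrix, had members at 638 bp (3.61, 3.89, -2.59 and -2.36) and at -85 bp (2.12, 2.03, -1.55 and -1.46). The member at -2051 bp of ENG, the co-receptor endoglin, had 2.50, 3.32, -7.63 and -7.01. Most of the separation at ENG and TGFB3 lay on the stimulated side, and at LTBP3 more lay on the basal side.

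At genes of SMAD proteins and their regulators, 3 of 209 eligible probes were members (1.44%, 2 of 22 genes), with a median change of -0.12 over the list and 29.7% called lower. TGIF1, a corepressor that binds SMAD proteins, had a member at -1799 bp with 7.71, 7.19, -2.02 and -2.31. PPM1A, a phosphatase reported to act on SMAD proteins, had members at -596 bp (6.73, 6.32, -1.60 and -1.49) and -757 bp (5.19, 4.99, -2.46 and -2.59). No other gene of the list had one.

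Of known TGFβ1 target genes, 4 of 30 had 1 member each, among 490 eligible probes (0.816%, median change -0.24, 29.0% called lower). CCN2 (CTGF in the array files), a matricellular protein, had a member at 838 bp with 3.95, 3.58, -3.05 and -3.49. The others were TIMP1, an inhibitor of matrix metalloproteases (2.20, 2.14, -4.27 and -3.00), TAGLN, an actin-binding protein of smooth muscle (3.05, 2.98, -1.48 and -1.60), and ID2, an inhibitor of basic helix-loop-helix factors (2.34, 2.43, -1.61 and -2.29). Of AP-1 and immediate early genes, the small MAF factor gene MAFK (3.06, 3.58, -6.77 and -7.31) and the ERK phosphatase gene DUSP5 (2.73, 2.71, -2.88 and -2.21) had 1 member each among 373 eligible probes (0.536%, median change -0.30).

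Among lung epithelial genes, 4 of 18 had a member (1.45% of 276 eligible probes, median change -0.17). This was 22.2% of the genes, against 9.17% over all genes, while the share of probes was near the overall 1.19%. The shares called lower were 32.6% in this list and 32.2% at AP-1 and immediate early genes. They were 30.6% at epithelial-mesenchymal transition genes and 27.1% at cell cycle genes, against 30.6% of all eligible probes. FOXA1, a forkhead factor of endoderm, had a member at -497 bp with 2.36, 2.43, -6.12 and -5.82. AQP5, a water channel of alveolar cells, had 3.18, 2.76, -1.19 and -1.07, and SCGB1A1, the club cell secretoglobin, 2.13, 2.04, -1.47 and -1.41. The epithelial-mesenchymal transition list had 1 member in 278 eligible probes (0.360%), at the tight junction gene OCLN (3.39, 3.66, -1.94 and -2.28). The cell cycle list had 4 in 428 (0.935%), at the cyclin genes CCNA1 (2.74, 2.71, -6.68 and -5.78) and CCND1 (3.11, 3.43, -2.12 and -1.41) and at E2F1, a transcription factor of the G1/S transition, where the probes at 9527 and 9960 bp had 4.40, 4.11, -1.55 and -1.70, and 3.46, 3.46, -1.17 and -1.08.

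**Figure D5:**
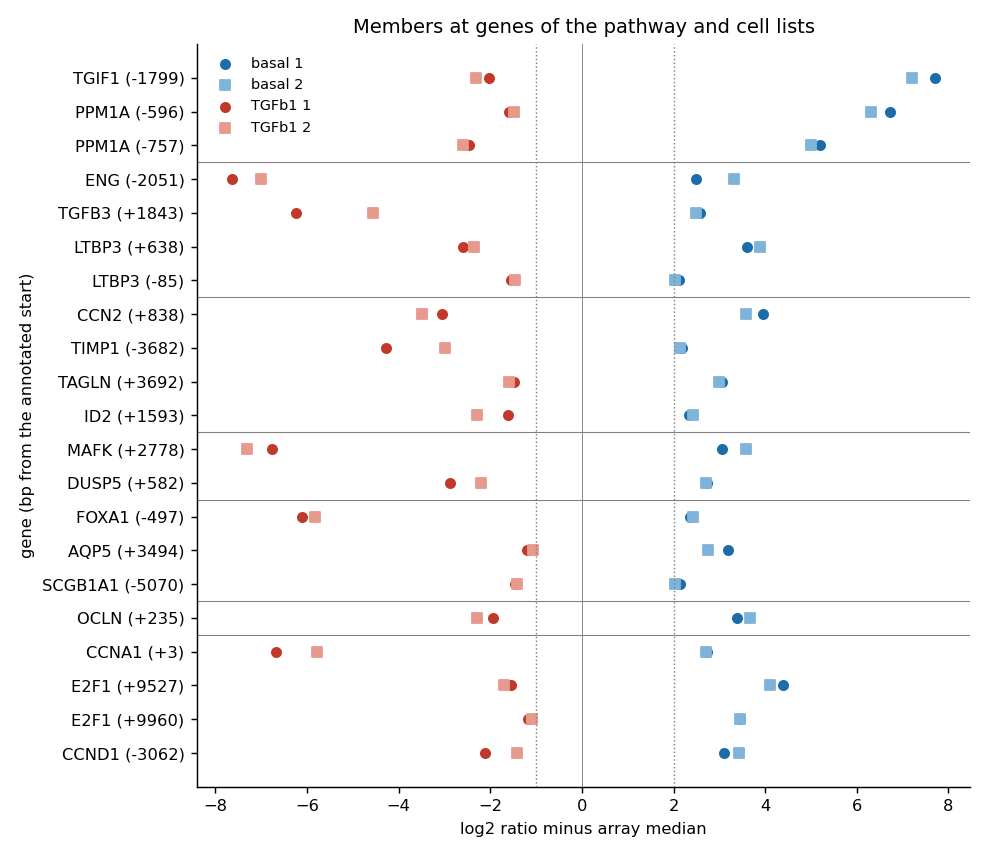
Log2 ratio minus the array median (x) of 21 members at genes of the 7 pathway and cell lists (y, with the distance to the annotated start in bp), in 2 basal and 2 TGFβ1 replicates; dotted lines mark the limits of 2 and -1 that chose the members. TGIF1 has the highest basal values, 7.71 and 7.19, and ENG and MAFK the lowest stimulated ones, down to -7.63.

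Gene families held members at shares from 0% to 1.68% of their eligible probes, against 1.19% overall. Homeobox genes had 21 members in 1696 eligible probes (1.24%), at 19 of 84 genes. The largest separation among them was at -3795 bp of HOXB9 (7.62, 7.25, -7.06 and -6.56), and SIX2 had 3 members. Chemokines and interleukins had 11 in 653 (1.68%), which included IL6 at -1019 bp with 2.80, 2.97, -3.54 and -4.38. Keratins had 7 in 445 (1.57%), with 3 at KRT15, where the probe at -3450 bp had 10.1, 9.37, -1.72 and -2.50. Extracellular matrix and adhesion genes had 23 in 1983 (1.16%), with 3 at CDH15. Zinc finger genes had 34 in 2804 (1.21%), solute carriers 35 in 3628 (0.965%), potassium channel genes 14 in 1345 (1.04%), olfactory receptors 7 in 532 (1.32%) and ribosomal proteins 3 in 439 (0.683%). Histone genes had 0 in 109 and a median change of 0.17. In shares of called probes the families ranged from 23.9% called lower at histone genes to 34.0% at chemokines and interleukins, around the 30.6% of all eligible probes, and the other 8 families lay between 28.1% and 31.9%.

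At the limits, the members just inside were at BTG3, with a basal value of 2.0001, at C4orf26, with a stimulated value of -1.0004, and at SPACA3, with a basal value of 2.0010. The eligible probes just outside were at FLNA and EMD, with a basal value of 1.9999, at NF1, with 1.9998, and at NBR1, with a stimulated value of -0.9993. These 6 probes differed from a limit by less than the replicate spread.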

How the data were processed

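ChIP-on-chip was analysed in 8 arrays of A549 cells, from 2 replicates per condition on 2 slides. Per the study's methods, sheared DNA fragments of 200 to 700 bp were precipitated and the purified DNA was amplified by PCR after linker ligation, labelled and hybridised. The authors deposited scanner files with an intensity per probe and channel from Agilent Feature Extraction 9.5.1.1 (named in the submitters' processing notes), already background-subtracted and dye-scaled, and a series matrix with the uncentred log2 ratio of the processed signals, which differed from the recomputed ratio by at most 3.13e-06. The files name no genome build, so no probe coordinates are given. The median log2 ratio per array, 0.24 to 0.72, was subtracted, and no loess was applied. Groups came from the sample labels. The members, gene lists and motifs were chosen with earlier results of these data known.

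limma 3.58.1 in R 4.3.3 tested TGFβ1 minus basal in all 161376 eligible probes with Benjamini-Hochberg adjustment and a threshold of 0.05. The procedure was tested on simulated data. Distances between probes are centre to centre. Named were the 15 members with the widest gap between the lower basal and the higher stimulated value, members with another within 700 bp, members at listed genes, up to 10 members within 250 bp of a start by gap, 3 probes on each side of the limits, and up to 10 members with the most eligible neighbours within 700 bp. These are too many to print, so the larger sets are given by counts with the widest named first, and NTSR1 and LCN2 were picked for their profiles after their values were seen. Of 1860 members annotated to a RefSeq gene, 1849 matched a current symbol, and 303 of these differed from the name in the files. The values of 1 listed gene are not reported here, though the counts include it. Outlier flags (4 members) and saturated spots (4 members) were kept. The number of arrays and the signal over background limit the precision, and all values are relative to a mock IP. Alternatives to the background correction, scaling, filter, limits, neighbour distance, replicates and fit are given at the end.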

Additional observations from a re-analysis of the deposited data

How the results depend on the processing

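With normexp (offset 50), 274 probes met the rule in place of 1919, 51 of them had another within 700 bp (281), the mock IP signal moved more at 46 (600), 10707 probes were called lower (49372) and 7491 higher (37438), and neighbours within 250 bp were called lower in 24.9% (49.4%) with a median change of -0.66 (-0.93). The cause was not tested. Where an alternative changed the members, the neighbours are those of its own members. Limits of 3 and -2 gave 500 members, 68 with another within 700 bp, and limits of 1 and 0 gave 7730 and 1571. Asking for 1 channel above background on every array gave 443 members with another within 700 bp. The neighbours' median change was -0.62 without a filter on dim probes, -0.58 within 500 bp and -0.46 within 700 bp. Leaving out each replicate in turn gave 2195 to 2294 members, 314 to 344 with another within 700 bp, 606 to 859 whose mock IP signal moved more, 40247 to 44207 lower and 29088 to 34645 higher calls, and 41.2% to 44.7% of neighbours called lower with a median change of -0.90 to -0.84; where this left 1 array in a condition, it was assumed to vary like the other condition. The replicate number as a block in limma gave 47228 lower and 35802 higher calls and 47.4% of neighbours called lower. Same-numbered replicates did not deviate together (correlation 0.05 over eligible probes), so the numbers are not treated as pairing the samples. No other alternative moved a count by over 1.5 times. Of 52 named members none changed direction in 468 comparisons, with changes from -18.9 to -0.52. The rule chose these members on the same spots, so the kept direction adds little support. The channel count could not be recomputed from the series matrix, which holds ratios.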

Other observations

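Of 2696 eligible probes annotated to a microRNA, 32 were members (1.19%), at 27 microRNAs. Most were kilobases from the microRNA, and 5 lay within 1000 bp. Upstream of hsa-mir-196a-1 on chromosome 17, in the HOXB cluster, the member at -635 bp had 6.99 and 6.63 at the basal level and -4.28 and -3.68 after stimulation. The probe annotated 2291 bp downstream of the same microRNA is the HOXB9 member. The member at 1912 bp of hsa-mir-125a on chromosome 19 had 5.43, 5.34, -7.10 and -5.47, and a member at -604 bp of hsa-mir-99b on the same chromosome had 3.41, 3.20, -2.02 and -1.86. The microRNA hsa-mir-126 on chromosome 9 had members at -3276 bp (4.76, 5.45, -2.91 and -3.27) and -3593 bp (2.86, 2.26, -2.70 and -2.91).

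Among the members with the most eligible probes around them, 2 neighbouring probes upstream of CPT1B, the muscle form of carnitine palmitoyltransferase 1, each had 10 eligible probes within 700 bp. They had 5.08, 4.79, -3.80 and -3.37 at -220 bp and 6.82, 6.33, -1.03 and -1.01 at -110 bp. The member at 938 bp of TNFRSF14, a receptor of the tumour necrosis factor family, had 9 eligible probes around it and values of 5.40, 5.39, -6.03 and -6.05.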
